A study of Mus musculus with 11 samples.

Results

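Supt16 and Ssrp1 encode the 2 subunits of FACT, a histone chaperone, and were taken by gene symbol from a count table of 55291 genes in mouse embryonic stem cells, in which each symbol has 1 row. FACT loosens nucleosomes ahead of RNA polymerase II and of the replication fork by binding the histone dimer H2A-H2B, and helps to rebuild them behind. SPT16, the large subunit, carries histone-binding domains and an acidic tail. SSRP1, the small subunit, carries an HMG box that contacts DNA and dimerizes with SPT16, and FACT is abundant in proliferating and undifferentiated cells. The cells were E14 embryonic stem cells, an established line, grown without feeder cells. The medium held serum with leukaemia inhibitory factor, the GSK inhibitor CHIR99021 and a MEK inhibitor.

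In 2 independently targeted lines the C terminus of SPT16 was extended by a V5 epitope and an AID (auxin-inducible degron), which marks the protein for destruction when 3-indoleacetic acid (IAA) is added and the plant receptor TIR1 is present. Tagged cells were kept for 24 h in medium with 500 nM IAA, or with ethanol (EtOH) alone at equal volume, after 48 h of growth on the plate, and untagged cells received IAA. The count table names the tagged lines 10E and 11D and holds 2 EtOH libraries of each, 1 IAA library of 10E, 2 IAA libraries of 11D and 3 IAA libraries of the column code TIR1, which was read as the untagged line. The labels list 11 samples, of which 10 have a column, and do not tie 10E and 11D to their clone numbers. No untagged EtOH library was analysed here, and the labels call each tagged line a clone. The labels do not say that replicates were separate cultures, and p-values then reflect only how far these libraries spread, which may be technical. Because the degron removes a protein, the transcripts described here do not measure its loss.

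Library totals ran from 3100127 to 13510163 counts. All 10 embryonic stem cell markers examined had counts in every library, with a summed CPM (counts scaled to a library of fixed size) of 5000 to 6475 in tagged EtOH. The sum was 2059 to 2304 CPM in the tagged IAA libraries, and 5562 to 5805 CPM in the untagged ones. The 9 fibroblast markers summed to between 19.7 and 36.4 CPM in the 10 libraries. Col3a1, Dcn and Lum were at 0 in some of them, and Postn in all. The sum hides opposite changes. Of the 5 fibroblast markers tested for IAA against EtOH, Pdgfra was called higher (log2 fold change 1.80) and Pdgfrb lower (-0.86), and 3 were not called. Over all genes 29.3% were called higher and 28.1% lower (edgeR FDR under 0.05). In bulk RNA, fewer cells of a type and less RNA per cell cannot be told apart. The scaling factors of edgeR's TMM method, which aligns most genes between libraries, were 1.13 to 1.2 in tagged IAA and 0.885 to 0.983 in the others, so the size of each change depends on that scaling. The transcript CT010467.1 took 2.64% and 4.27% of the counts of 10E EtOH replicate 2 and 11D EtOH replicate 1 and at most 1.58% elsewhere, and no call for Supt16 or Ssrp1 changed without those 2 libraries.

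The annotation (GENCODE M21, build GRCm38, the assembly also called mm10) places Supt16 on the minus strand at chr14:52160414-52197416, with 26 exons in its protein-coding transcript. Ssrp1 lies on the plus strand at chr2:85037234-85047109, with 17 exons in its principal transcript. The sequences directly upstream of both genes are shown because the transcripts of these 2 genes were both lower after IAA, by different amounts. Each stretch ends before the first annotated transcription start, reads 5′ to 3′ on the gene's strand, and comes from the RefSeq promoter table of build GRCm38.p6. They are chr14:52197417-52197489 on the minus strand for Supt16 and chr2:85037020-85037119 on the plus strand for Ssrp1. Capitals mark the motifs found by the search that follows.
Supt16: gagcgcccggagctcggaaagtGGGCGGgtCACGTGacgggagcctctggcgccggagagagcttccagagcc
Ssrp1: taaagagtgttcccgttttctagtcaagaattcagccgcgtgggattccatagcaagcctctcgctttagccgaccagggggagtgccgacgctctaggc

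In the Supt16 stretch the capitals are a GC box (GGGCGG), a binding sequence of Sp1 family factors, and an E-box (CACGTG), read by factors such as MYC and USF. Both strands of the 250 bases before each RefSeq start were searched for 6 motifs. These were the TATA box (TATAAA), the CCAAT box (letters CCAAT), the GC box, an ETS family sequence (CCGGAAG), the E-box and the cAMP response element (TGACGTCA). The Supt16 window held the GC box at 2 places, the ETS sequence at 2 and the E-box at 1. This window reaches into the annotated gene, which starts at chr14:52197416. Both ETS matches and 1 of the 2 GC boxes lie inside the annotated gene and not in the printed stretch. Among 32851 promoters of the same table, 32.7% held the GC box, 6.91% the ETS sequence and 6.02% the E-box, and the other three were in 12.4% (TATA box), 33.8% (CCAAT box) and 1.55% (cAMP response element). The window before the first Ssrp1 start held none of the 6, and the window before its second RefSeq start held 1 GC box. GC content was 63.6% for Supt16, 46.4% for the first Ssrp1 start and 67.6% for the second, against a median of 52.4% over all promoters. CpG pairs numbered 28, 10 and 26, against a median of 6. The second Ssrp1 window ends directly before the start of the principal basic transcript Ssrp1-209. It overlaps the first exon of Ssrp1-201 and is not printed. A match is a description of letters and not a measured binding site.

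Supt16, the degron-tagged gene, had its highest transcript levels in the untagged line and its lowest in tagged cells under IAA. Its TMM-scaled level was 384 and 416 CPM in line 10E under EtOH and 364 and 390 CPM in line 11D under EtOH. Under IAA it measured 279 CPM in the single 10E library, and 253 and 286 CPM in 11D. In untagged cells under IAA it was 553, 538 and 577 CPM. The 3 groups did not overlap: every untagged library lay above every tagged EtOH library, and these above every tagged IAA library. The 2 tagged lines overlapped with each other under either treatment. The group means were 556 ± 19.6 CPM (SD, n = 3) in untagged IAA, 388 ± 21.3 (n = 4) in tagged EtOH and 273 ± 17.4 (n = 3) in tagged IAA.

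Ssrp1, whose product is the untagged partner, showed 2 levels rather than 3. It stood at 313 and 337 CPM in 10E EtOH and at 282 and 308 CPM in 11D EtOH. In untagged IAA it was 296, 320 and 329 CPM, within the range of the tagged EtOH libraries. Under IAA it was 146 CPM in 10E, and 150 and 142 CPM in 11D, below every other library. The means were 310 ± 22.6 CPM (SD, n = 4) in tagged EtOH, 146 ± 4.43 (n = 3) in tagged IAA and 315 ± 16.7 (n = 3) in untagged IAA. From highest to lowest, 10E EtOH, untagged IAA and 11D EtOH were neighbours that overlapped in pairs (the 2 tagged lines themselves did not overlap under EtOH), followed by the 2 IAA-treated tagged lines, which also overlapped. Raw counts behind these levels ran from 889 to 6190 for Supt16 and from 528 to 3530 for Ssrp1. Counting error was therefore at most 3.35% of the value for Supt16 and 4.35% for Ssrp1.

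**Figure D1:**
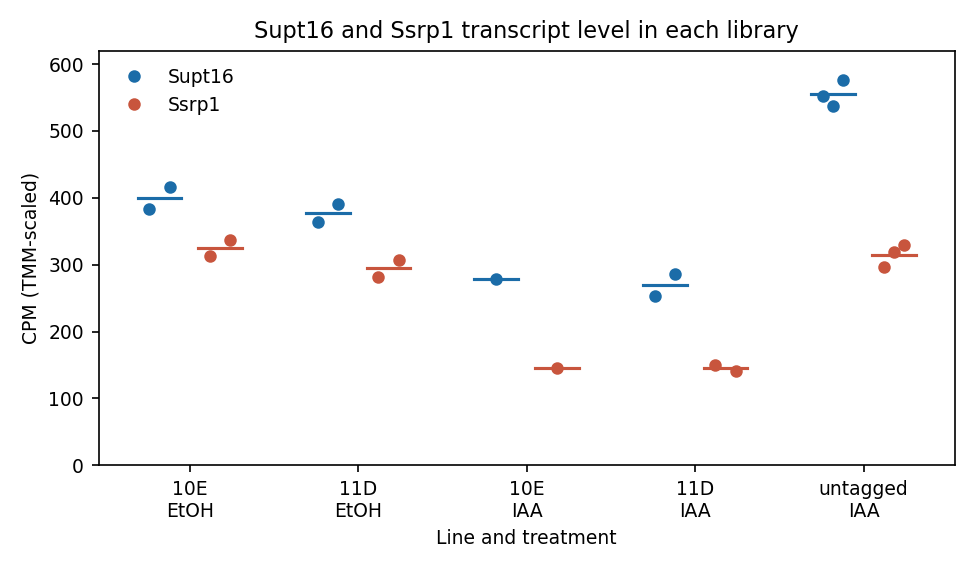
Transcript level (CPM, TMM-scaled, linear axis from 0) of Supt16 and Ssrp1 in each of the 10 libraries, grouped by line and treatment, with each point a library and each bar the group mean. Supt16 falls into 3 levels (556, 388 and 273 CPM on average in untagged IAA, tagged EtOH and tagged IAA) and Ssrp1 into 2, with only the tagged IAA libraries near 146 CPM.

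Both FACT transcripts were lower under IAA than under EtOH in the tagged lines, Ssrp1 by more than Supt16. With line as a covariate, the log2 fold change was -0.50 ± 0.09 (SE) for Supt16, a 1.42-fold lower level (edgeR quasi-likelihood test, FDR 0.000154, Benjamini-Hochberg over 17904 genes). For Ssrp1 it was -1.08 ± 0.09, a 2.11-fold lower level (edgeR FDR 8.0e-08). The 95% interval ran from -0.69 to -0.32 for Supt16 and from -1.27 to -0.89 for Ssrp1, and these do not overlap. An FDR under 0.05 was the threshold for a call throughout, and 57.4% of all genes tested passed it in this comparison, so a call was common among all genes. All 10 embryonic stem cell markers were lower in the same comparison, and their part in the FACT values was not tested. A lower log2 fold change than that of Supt16 was found for 25.6% of genes, and a lower one than that of Ssrp1 for 9.32%.

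The calls depended on scaling for Supt16 and not for Ssrp1. With library totals in place of TMM the median of all genes moved up by 0.33 on the log2 scale and Supt16 stood at -0.17 (edgeR FDR 0.0992). Relative to the median gene, the log2 fold change of Supt16 was -0.54 with TMM and -0.53 with library totals, and that of Ssrp1 was -1.11 with both. A change of scaling moves all genes by nearly the same amount. These distances could therefore hardly differ and are no check of the Supt16 call. The authors' deposited table, made with DESeq2 according to its column names, lists a log2 fold change of -0.43 with an adjusted p of 4.04e-05 for Supt16. For Ssrp1 the authors' deposited table lists -1.01 with an adjusted p of 5.02e-21.

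Each tagged line showed the same order. In 10E, Supt16 changed by -0.53 ± 0.14 (edgeR FDR 0.00949) and Ssrp1 by -1.17 ± 0.14 (edgeR FDR 4.92e-05) on the log2 scale, where 35.4% of genes were called and the single IAA library was taken to vary like the other groups. In 11D, the log2 fold change was -0.48 ± 0.11 (edgeR FDR 0.00302) for Supt16 and -1.02 ± 0.11 (edgeR FDR 9.95e-06) for Ssrp1, where 46.2% of genes were called. Without replicate 1 of the 11D IAA libraries, the lower of the pair for Supt16, the 11D change of Supt16 was -0.40 (edgeR FDR 0.0553). The difference between the lines in response was 0.05 ± 0.18 for Supt16 (95% interval -0.33 to 0.43, edgeR FDR 0.991) and 0.15 ± 0.17 for Ssrp1 (-0.22 to 0.52, edgeR FDR 0.956). That interaction test called 0% of 17904 genes with edgeR and 1 gene with DESeq2. In the edgeR test 872 genes had an unadjusted p under 0.05, about as many as that threshold passes when no gene differs.

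Neither transcript was called different between the 2 tagged lines under EtOH. Line 10E against 11D under EtOH gave a log2 difference of 0.09 ± 0.11 for Supt16 (95% interval -0.14 to 0.33, edgeR FDR 0.698) and 0.15 ± 0.11 for Ssrp1 (-0.08 to 0.38, edgeR FDR 0.496). In this comparison 3.23% of genes were called.

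Tagged cells under EtOH had less Supt16 transcript than untagged cells, whereas Ssrp1 was not called different. The log2 fold change of tagged EtOH against untagged IAA was -0.52 ± 0.08 for Supt16, a 1.43-fold lower level (edgeR FDR 0.00715), and -0.02 ± 0.08 for Ssrp1 (edgeR FDR 0.891). The 95% interval for Supt16 ran from -0.69 to -0.34, and that for Ssrp1 from -0.20 to 0.15. Only 3.57% of 17439 genes were called here, and 10.1% of genes had a lower log2 fold change than Supt16. With library totals the value for Supt16 was -0.55. The tag, the line's history and the treatment differ together between these groups and cannot be told apart. Summed embryonic stem cell markers overlapped between these groups (5000 to 6475 CPM against 5562 to 5805).

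When both arms received IAA, the 2 subunits differed by similar amounts. Tagged IAA against untagged IAA gave a log2 fold change of -1.02 ± 0.10 for Supt16 (2.02-fold lower, edgeR FDR 4.19e-07) and -1.11 ± 0.09 for Ssrp1 (2.16-fold lower, edgeR FDR 1.48e-07). In this comparison 55.7% of genes were called. The tag and the line's history still differ between these arms, and their part cannot be told apart from that of the degron. Supt16 already stood at -0.52 in tagged EtOH against untagged IAA, and Ssrp1 at -0.02. The comparisons share libraries: the untagged libraries serve as reference in both this one and the one before, and the tagged IAA libraries enter both this one and that of IAA with EtOH.

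**Figure D2:**
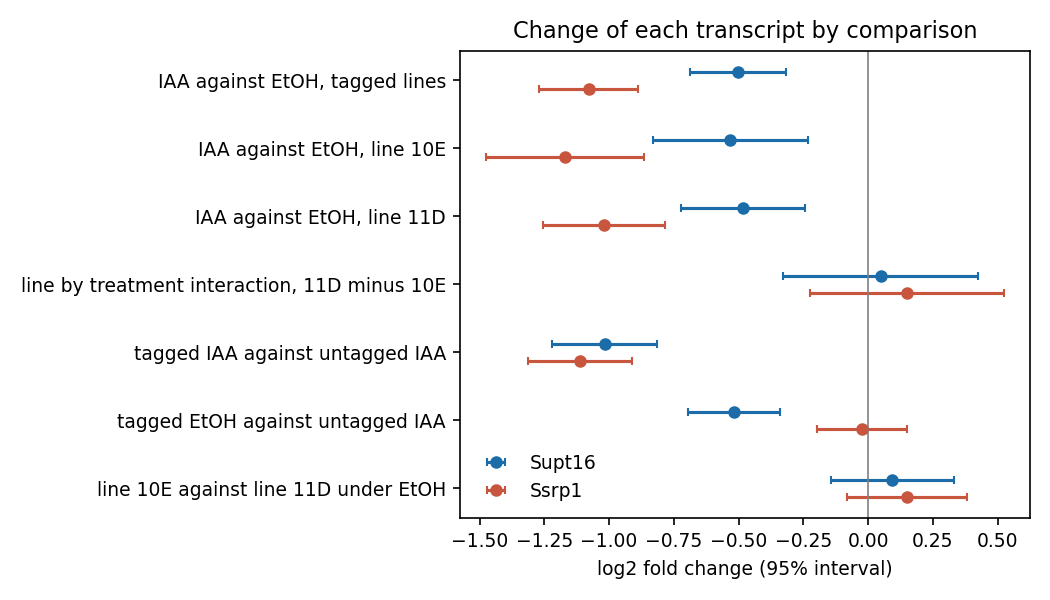
Log2 fold change with its 95% interval (horizontal axis) of Supt16 and Ssrp1 in each of 7 comparisons (vertical axis), from the edgeR fits. Supt16 sits near -0.50 both for IAA against EtOH and for tagged EtOH against untagged IAA, while Ssrp1 sits at -1.08 in the first and -0.02 in the second.

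The balance of the 2 transcripts within a library does not depend on library scaling. Supt16 made up 55.1% and 55.2% of the summed counts of both genes in 10E EtOH, and 56.4% and 55.9% in 11D EtOH. In tagged IAA its share was 65.7% in 10E, and 62.7% and 66.9% in 11D. In untagged IAA it was 65.1%, 62.7% and 63.7%. All tagged EtOH libraries lay below all others, and the tagged and untagged IAA libraries overlapped. The share was higher by 9.48 percentage points in tagged IAA than in tagged EtOH (65.1 ± 2.15 against 55.6 ± 0.607, exact two-sided permutation p = 0.0286, the smallest that 3 against 4 libraries can give, 0.0429 after Benjamini-Hochberg adjustment over 3 comparisons).

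Between tagged EtOH and untagged IAA the share differed by -8.20 points (63.8 ± 1.19 in untagged IAA, exact permutation p = 0.0286, adjusted 0.0429). The tag, the line's history and the treatment differ together between these groups and cannot be told apart. Tagged and untagged cells under IAA differed by 1.28 points (exact permutation p = 0.4, adjusted 0.4, where 3 against 3 libraries cannot go below 0.1). Among exact 95% Clopper-Pearson intervals, which cover counting error only, the highest upper limit of the tagged EtOH libraries was 58.5% (11D EtOH replicate 1) and the lowest lower limit of the others was 60.2% (11D IAA replicate 1). Per kilobase of all annotated exons, the ratio of Supt16 to Ssrp1 was 0.908 to 0.958 in tagged EtOH, 1.25 to 1.5 under IAA in tagged cells and 1.25 to 1.38 in untagged cells. Ssrp1 has 9 annotated transcripts and its exons include those of non-coding ones, so this ratio depends on the length used. With the length of each gene's principal basic transcript, chosen after seeing the data, it was 0.713 to 0.752 in tagged EtOH, 0.980 to 1.18 under IAA in tagged cells and 0.980 to 1.09 in untagged cells. With either length, every tagged EtOH library lay below 1 and below every IAA library. Every IAA library lay above 1 with all exons. With the principal transcript 11D IAA replicate 1 and untagged IAA replicate 2 were at 0.980, and the other IAA libraries stayed above 1.

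**Figure D3:**
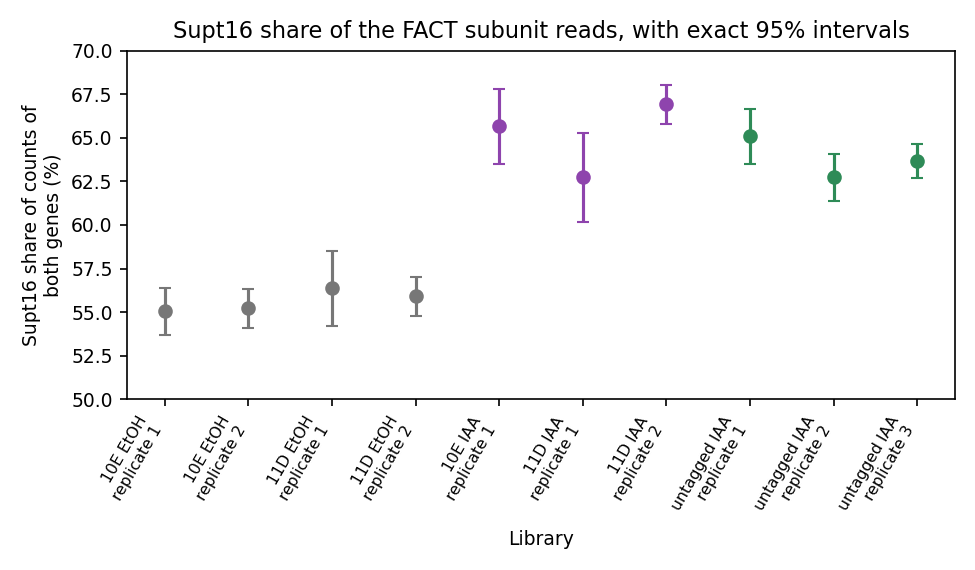
Share of Supt16 in the summed Supt16 and Ssrp1 counts of each library (percent, axis from 50 to 70), with exact 95% intervals for counting error. The 4 tagged EtOH libraries sit at 55.1% to 56.4%, the 3 tagged IAA libraries at 62.7% to 66.9% and the 3 untagged IAA libraries at 62.7% to 65.1%. No untagged EtOH library was analysed.

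Both genes ranked among the more abundant transcripts per length. In CPM per kilobase of exon, Supt16 stood at 77.1 in tagged EtOH, 54.2 in tagged IAA and 110.3 in untagged cells, and Ssrp1 at 82.9, 39.1 and 84.3. Of 26791 genes with counts in tagged EtOH, 506 had a higher level per kilobase than Supt16 and 443 a higher one than Ssrp1. In tagged IAA 532 genes of 28735 were above Supt16 and 912 above Ssrp1. In untagged IAA these numbers were 285 and 409 of 25467.

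Exons of other genes overlap both members on the opposite strand. Whether the counting used strand is not given in the sources used here, so reads of overlapping stretches cannot be assigned with certainty. Rpgrip1, which encodes a ciliary protein of photoreceptors, shares 1057 bases with Supt16 exons, or 21% of their length, at the 3′ end of Supt16. Its counts per 100 Supt16 counts were 3.59 to 4.53 in tagged EtOH and 11.5 to 15.2 in tagged IAA, against 3.00 to 4.06 in untagged cells. Rpgrip1 was higher in IAA, at 35.7 ± 5.97 CPM (SD, n = 3) against 15.7 ± 1.24 under EtOH (n = 4), with a log2 fold change of 1.22 ± 0.14 (edgeR FDR 2.06e-06). Its part in the Supt16 values was not tested. P2rx3, an ATP-gated ion channel of sensory neurons, shares 51 bases with Ssrp1, or 1.36% of its exonic length, and had at most 0.913 counts per 100 Ssrp1 counts.

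Genes near Supt16 moved in both directions, and the few that could be tested near Ssrp1 were all at negative values with 1 call. Within 100 kb of Supt16 lie 13 annotated genes, of which 9 could be tested for IAA against EtOH: 2 were called higher and 3 lower, where 29.3% of all genes were called higher and 28.1% lower. The lower ones were Hnrnpc, which encodes an RNA-binding protein of nascent transcripts, at a log2 fold change of -0.91, Mettl3, the RNA N6-adenosine methyltransferase, at -0.38, and Chd8, a chromatin remodeler, at -0.26. The higher ones were Rpgrip1 and Tox4, which encodes an HMG box protein, at 0.27. With library totals Mettl3 was at -0.05 and Chd8 at 0.07, neither called. Of 7 genes around Ssrp1, 3 were tested and 1 was called lower, the solute carrier gene Slc43a3 at -1.13, on a mean of 5.13 CPM in tagged EtOH. That call was not held with library totals (-0.80, edgeR FDR 0.0573). The other two, neither called, were P2rx3 at -0.56 ± 0.56 (SE), on a mean of 1.70 CPM in tagged EtOH, and Tnks1bp1 at -0.26 ± 0.13, which starts 10.8 kb downstream of the Ssrp1 start and was at 0.08 with library totals. In tagged EtOH against untagged IAA none of the neighbours tested was called, where 3.57% of genes were.

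**Figure D4:**
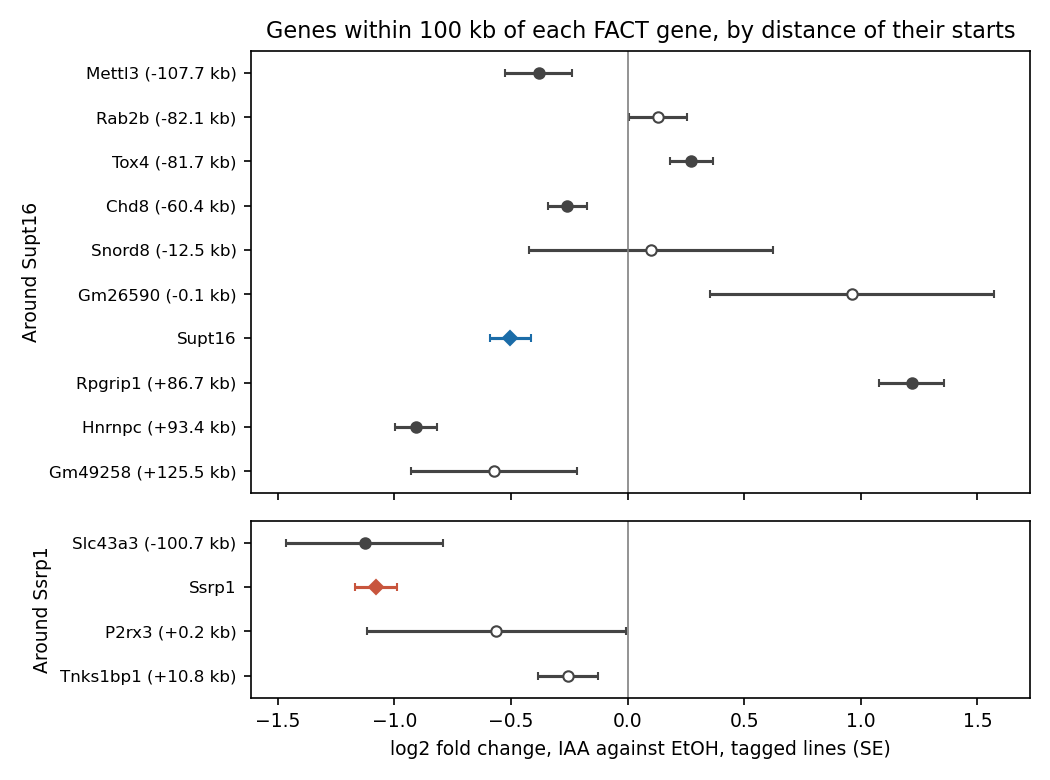
Log2 fold change with SE of the tested genes around Supt16 (upper panel) and Ssrp1 (lower panel), IAA against EtOH in the tagged lines, ordered by the signed distance of their start from the member's start (negative is upstream in the member's direction). Filled points passed an edgeR FDR of 0.05, diamonds are the 2 FACT genes, and neighbours lie on both sides of 0 around Supt16.

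The genes of proteins that work beside FACT were read from 6 lists, 37 genes in all, each of which was tested. For IAA against EtOH, 10 were called higher, 19 lower and 8 neither, with a median log2 fold change of -0.25 against 0.03 over all genes, of which 29.3% were called higher and 28.1% lower. Of the 37, 3 had a lower log2 fold change than Ssrp1 and 12 a lower one than Supt16. With library totals the lists had 17 higher and 12 lower, with a median of 0.08, while over all genes the calls were 7713 higher and 2851 lower, against 5247 and 5034 with TMM.

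The replicative helicase was the list in which each member was lower. All 6 subunits of MCM2-7, the ring that unwinds DNA and to which FACT is known to bind, were called lower, where 28.1% of all genes were, with a median log2 fold change of -0.80. Mcm3 averaged 584 ± 63.9 CPM under EtOH (SD, n = 4) and 234 ± 7.45 under IAA (n = 3), with a log2 fold change of -1.29 ± 0.10 (edgeR FDR 2.31e-08). Mcm2 followed at -1.13 ± 0.10, and the other 4 lay between -0.83 and -0.58, so that Ssrp1 fell within the range of the helicase genes and Supt16 above it. All 6 were also called lower with library totals, where 2851 of 17904 genes were called lower and 7713 higher. In each line alone all 6 were called lower too. There 18.3% of genes in 10E and 23.1% in 11D were called lower, against 17.1% and 23.1% called higher.

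Other carriers of H2A-H2B were called lower in 5 of 6 cases, where 28.1% of all genes were, with a median of -0.39. Npm1, the abundant nucleolar chaperone nucleophosmin, averaged 1716 ± 243 CPM under EtOH (SD, n = 4) and 769.5 ± 10.1 under IAA (n = 3), with a log2 fold change of -1.18 ± 0.12 (edgeR FDR 4.38e-07). Ipo9, which imports H2A-H2B into the nucleus, was at -0.58 ± 0.09 (edgeR FDR 3.29e-05). Nap1l1, Anp32e and Set lay between -0.40 and -0.36, and Nap1l4, another NAP1 family chaperone, was at 0.04 and not called. Library totals called 7713 of all 17904 genes higher and 2851 lower. Under that scaling 2 of the 6, Npm1 and Ipo9, were called lower and Nap1l4 was called higher. Without the 10E IAA library 2 of the 6 were called lower. In that fit 13 of all 37 partner genes were called lower, against 19 with that library. The share of all genes called lower in that fit is not given here.

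Among transcription elongation partners, 6 of 14 were called higher and 4 lower, with a median of 0.18. Over all genes 29.3% were called higher and 28.1% lower, so the share of these partners called lower was near the background. The genes of the PAF1 complex, which travels with the polymerase, included the largest increases. Ctr9 averaged 105 ± 8.18 CPM under EtOH (SD, n = 4) and 259 ± 22.2 under IAA (n = 3), with a log2 fold change of 1.28 ± 0.09 (edgeR FDR 2.19e-08), and Paf1 from 60.1 ± 10.3 to 136 ± 14.1 CPM, a change of 1.21 ± 0.11 (edgeR FDR 2.09e-07). Wdr61 was at 0.64 and Leo1 at 0.26, both called, whereas Cdc73 of the same complex was called lower at -0.26 and Rtf1, an associated factor, was at 0.10 and not called. Supt4a, a subunit of the elongation factor DSIF, was higher at 0.96, and its partner Supt5 was at 0.03 and not called. Supt6, a histone chaperone that rides with the polymerase, was higher at 0.34.

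Of the chromatin remodelers among them, Chd2 was lower at -0.99 ± 0.10 (edgeR FDR 6.13e-07) and Chd1, known to bind FACT, at -0.25 (edgeR FDR 0.0258). The 3 smaller decreases of this list, Cdc73, Chd1 and Tcea1 (an elongation factor that rescues stalled polymerase, at -0.29), turned to 0.07, 0.08 and 0.04 with library totals. Under that scaling, which called 7713 of all 17904 genes higher and 2851 lower, 10 of the 14 were called higher and 1 lower. Over all 17904 genes, upper-quartile factors called 4312 lower and DESeq2 4284, and for the other refits that follow no such background is given here. In this list the count of lower calls was also 1 with upper-quartile factors, with DESeq2 and with no line term, and 2 with the replicate block. It was 1 again when 10E EtOH replicate 2, 10E IAA replicate 1, 11D EtOH replicate 2 or 11D IAA replicate 2 was left out, each in turn.

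The remaining lists are short, and over all genes 29.3% were called higher and 28.1% lower. Monoubiquitination of H2B, a mark that FACT is known to work with, is placed by Rnf20 and Rnf40 with Ube2a or Ube2b and the adaptor Wac. Of these 5 genes Ube2a was higher at 0.82 ± 0.13 (edgeR FDR 5.67e-05), Wac was lower at -0.78 ± 0.11 (edgeR FDR 2.09e-05), and 3 were not called. Casein kinase 2, which phosphorylates SSRP1, had its catalytic subunit Csnk2a1 lower at -0.93 and the alternative catalytic subunit Csnk2a2 and the regulatory subunit Csnk2b higher at 0.34 and 0.45. Among the HMGB proteins, which share the HMG box with SSRP1, Hmgb1 was at -0.67 and Hmgb2 at -0.37, both lower, and Hmgb3 was higher at 0.72. Hmgb2 was at -0.04 and not called with library totals, and Hmgb3 was not called without the 10E IAA library.

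**Figure D5:**
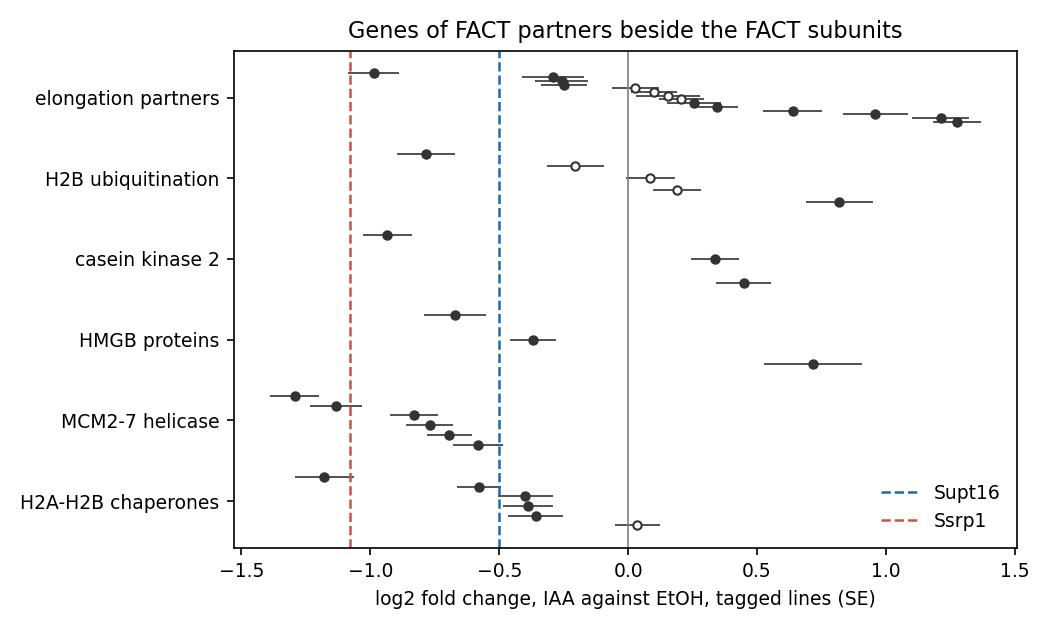
Log2 fold change with SE of the 37 partner genes by list, IAA against EtOH in the tagged lines, with filled points for an edgeR FDR under 0.05 and dashed lines at Supt16 (-0.50) and Ssrp1 (-1.08). The 6 helicase genes lie between -1.29 and -0.58, and the elongation partners spread from -0.99 to 1.28.

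In tagged EtOH against untagged IAA, 0 of the 37 partner genes were called by edgeR in either direction, where 3.57% of all genes were. Their log2 fold changes ran from -0.38 for Cdc73, with the smallest FDR of 0.0503, to 0.31 for Elof1, an elongation factor bound to the polymerase. The -0.52 of Supt16 lay below all of them. In tagged IAA against untagged IAA, 14 of the 37 were called higher and 20 lower, where 27.9% of all genes were called higher and 27.8% lower.

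Genes whose level most resembled that of each member were found by Pearson's correlation of log2 CPM over the 10 libraries, among 9199 genes with a mean of at least 10 CPM. These correlations are descriptions, since the libraries share lines and treatments. For Supt16 they were Ptcd3, a mitochondrial ribosome protein, Atp2b1, a plasma membrane calcium pump, Lta4h, an enzyme of leukotriene synthesis, Nuf2, a kinetochore subunit, and Rnf7, a ubiquitin ligase subunit, with r from 0.969 to 0.980. Ptcd3 averaged 169 ± 4.31 CPM (SD, n = 3) in untagged IAA, 112 ± 10.8 (n = 4) in tagged EtOH and 64.3 ± 4.07 (n = 3) in tagged IAA. This is the order of the 3 Supt16 levels, which follows from picking genes by their likeness to Supt16 in the same libraries. For Ssrp1 the genes picked in the same way were Xpo6, Sbds, Spred2, Mcm10 and Farsb, with r from 0.995 to 0.996. Mcm10, a replication initiation factor, averaged 266 ± 13.7 CPM in untagged IAA, 257 ± 24.1 in tagged EtOH and 105 ± 2.74 in tagged IAA. Supt16 and Ssrp1 correlated with each other at r = 0.843, which ranked Ssrp1 at place 1132 among the genes most like Supt16, and Supt16 at place 2240 among those most like Ssrp1.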

How the data were processed

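The members and the gene lists were chosen with earlier results of these data known. Total RNA was extracted with TRIzol and sequenced from NEBNext Directional libraries, per the labels' protocols. The authors deposited whole-number read counts per gene symbol, and STAR, deepTools and build mm10 appear, without versions, in the submitters' processing notes. For the read counter, annotation and strand setting, the sources used here name none. The authors' deposited table of IAA against EtOH holds a mean normalised signal, a log2 fold change, its standard error and Wald statistic (scores of no fixed range) and p-values, per the file headers, which are named as DESeq2 writes them.

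Counts of the 7 tagged libraries (17904 genes after filterByExpr) or of all 10 (17439 genes) were fitted with edgeR 4.0.16 in R 4.3.3 (TMM, quasi-likelihood F test, Benjamini-Hochberg over all genes, threshold 0.05), with line and treatment as terms or with 1 coefficient per line and treatment. The procedure was tested on simulated data in which few genes changed, equally often up and down. Many genes changed in the real data, so that test does not cover the dependence on scaling. No row of the 55291 lacked a gene name. CPM is TMM-scaled over all 10 libraries, and CPM per kilobase uses GENCODE exon length. Standard errors come from the F statistic. Shares of counts were compared by exact permutation over libraries (scipy 1.17.1). Depth was 3100127 to 13510163 counts per library. Replicate pairs differed by 3.05 to 28.9 chi-square units per degree of freedom, and none was taken as a library deposited more than a single time.

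Named genes were the 2 members, genes within 100 kb, members of the lists (examples: up to 2 called per direction with the smallest FDR) and the 5 genes most correlated with each member, predicted genes left out. Other list members are given for completeness. Of 55291 symbols in the count table, 53292 were found in GENCODE M21, and both members had a RefSeq promoter. Alternatives were library totals, upper-quartile factors, DESeq2 1.42.0, no filter, a replicate block, no line term, a fit of all 10 libraries and leaving out libraries.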

Additional observations from a re-analysis of the deposited data

How the results depend on the processing

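Direction and call held for Ssrp1 in the comparisons where it was called, under the alternatives run. With library totals Supt16 lost its call for IAA against EtOH: -0.17 in the tagged lines together (edgeR FDR 0.0992), -0.16 in 10E (FDR 0.408) and -0.18 in 11D (FDR 0.217), while the median of all genes moved by 0.33. Leaving out 1 library at a time, the log2 fold change of IAA against EtOH ran from -0.54 to -0.46 for Supt16 and from -1.14 to -1.02 for Ssrp1, and in 11D alone from -0.55 to -0.40 for Supt16, with the call lost without 11D IAA replicate 1. The replicate numbers carry no stated pairing. Only 11D has same-numbered pairs in both arms, whose deviations correlated at r = 0.53 over 9683 genes. With the replicate block, Supt16 stood at -0.48 (edgeR FDR 0.000192) and Ssrp1 at -1.07, with 9919 calls against 10281. The 10E comparison and the interaction could not be fitted without the single 10E IAA library.

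Among partner genes, library totals gave 10 elongation partners higher and 1 lower, 3 H2B ubiquitination genes higher and 1 HMGB gene lower. They gave 1 H2A-H2B chaperone higher and 2 lower, and 17 higher and 12 lower over all lists. Over all 17904 genes library totals gave 7713 higher and 2851 lower. Upper-quartile factors, DESeq2 and a fit with no line term each gave 1 elongation partner lower, and the replicate block gave 2. Over all genes upper-quartile factors gave 5885 higher and 4312 lower, and DESeq2 gave 4762 higher and 4284 lower. With principal transcript lengths, an alternative chosen after seeing the data, the mean per-length ratio of Supt16 to Ssrp1 was 0.73 in place of 0.930 in tagged EtOH, 1.09 in place of 1.39 in tagged IAA and 1.03 in place of 1.31 in untagged IAA. Leaving out 1 library at a time gave 8 to 11 higher and 13 to 19 lower over all lists. It gave 1 to 4 elongation partners lower, 2 to 5 H2A-H2B chaperones lower and 0 to 1 HMGB genes higher. No calls over all genes by direction are given here for these refits, so these ranges have no background beside them.

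Counts of calls over all genes moved most where few were called. Tagged EtOH against untagged IAA had 622 calls, 956 with library totals, 1366 without a filter and 83 to 1003 with 1 library left out. Line 10E against 11D had 578, 970 without a filter, 997 without the 2 libraries richest in CT010467.1 and 79 to 1034 with 1 library left out. Line 10E had 6333 calls and 4010 with DESeq2, 11D had 8274 and 4770 without 11D IAA replicate 2, and the interaction had 27 without a filter. The share of calls that were higher for IAA against EtOH was 51.0%, and 73.0% with library totals.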
